A study of Mus musculus with 12 samples.

Results

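The subunits of cAMP-dependent protein kinase (PKA) and the enzymes and anchors that act on them were followed in RNA-seq libraries of entire adrenal glands. The libraries came from 12 females of 10 to 11 weeks, 6 of the control group (Ctrl) and 6 of the β-catenin gain-of-function group (βCat-GOF). The 10 genes were picked by name, and results of the same comparison were known when they were picked. They are 10 of the 39017 genes in the deposited table, and all 10 were among the 14953 genes with enough reads to be tested. Mice of both groups were of a mixed sv129-C57Bl/6 strain and carried 1 copy of AS Cre (*AS*Cre/+), which is expressed from the *Cyp11b2* (AS) locus in zona glomerulosa (zG) cells. The βCat-GOF mice also carried 1 *Ctnnb1* allele with a floxed exon 3 (*Ctnnb1*fl(ex3)/+), whose removal by Cre leaves a stabilized β-catenin. The control titles read wild type while their genotype reads *AS*Cre/+, and the genotype is used here. Since entire glands were extracted, a value mixes zG cells with those of the zona fasciculata (zF), medulla, capsule and vessels, and fewer cells of a type cannot be told apart from less RNA per cell.

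At rest, regulatory and catalytic subunits of PKA are held together in an inactive complex. Corticotropin in the zF, acting through its receptor and adenylyl cyclase, raises cAMP, which binds the regulatory subunits and frees the catalytic ones to drive steroid synthesis. Phosphodiesterases (PDEs) break cAMP down, and A-kinase anchoring proteins hold PKA at particular places in the cell. In humans, inherited changes in *PRKAR1A*, *PDE8B* and *PRKACA* are known from adrenal hyperplasia with cortisol excess.

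Between 14090378 and 25625494 reads per Ctrl mouse and between 13484675 and 24951480 per βCat-GOF mouse were counted on genes, so that 3 counts correspond to 0.117 to 0.222 CPM (counts scaled to a common library total). In their labels, 3 pairs of mice have a common stem (Ctrl 1 with Ctrl 2, Ctrl 3 with Ctrl 4, and βCat-GOF 1 with βCat-GOF 2). The study counts every library as a mouse of its own, and the labels do not say what a common stem stands for. The chi-square per degree of freedom over genes was between 41.9 and 45.8 in these 3 pairs and between 16.8 and 145 in the 27 other pairs of the same group, so no pair agreed within sampling noise as 1 library deposited in duplicate would. This does not show that the libraries are from separate animals. The numbers that open the labels are the same in every Ctrl mouse, and 5 of the 6 βCat-GOF mice share another, so whatever this number stands for, which the labels do not say, cannot be told apart from the genotype. Counts on the whole *Ctnnb1* gene cannot show the loss of 1 exon, and the counts do not check the genotype. βCat-GOF 1 and βCat-GOF 2 stood apart from the other βCat-GOF mice in several of the genes described here, and some values that rest on them are given with and without them.

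Within the 10 genes, the largest fold changes were those of 1 phosphodiesterase and 1 anchor. The phosphodiesterase gene *Pde2a* was 2.31-fold and the anchor gene *Sphkap* 2.85-fold higher in βCat-GOF adrenals, *Pde8a* was 1.37-fold higher, and *Pde8b* lay at 0.742 times the control level. Both catalytic subunits were within 0.07 log2 units of the controls, and *Prkar2b* split the βCat-GOF mice into 4 with high and 2 with low values. Among the 14953 genes tested, 551 were called at an adjusted p under 0.05 (edgeR's quasi-likelihood test, Benjamini-Hochberg), which is 3.68% of the total, with 2.16% higher and 1.52% lower in βCat-GOF. Of the 10 genes, *Pde2a*, *Pde8a* and *Sphkap* were called, all 3 higher. Since the genes were chosen with this comparison known, nothing is read from that count. Likewise, the 6 βCat-GOF mice lay above all 6 Ctrl mice in these 3 genes, as they did in 1.61% of all genes tested (2.78% were free of overlap in either direction). Under the cut-offs of the study, which also ask for a fold above 1.4 and a base mean above 100, *Pde2a* and *Sphkap* were called, beside 2.35% of all genes tested and 1.48% in the higher direction. The median log2 fold change of the 10 genes was 0.18, beside 0.0001 over all genes tested.

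**Figure D1:**
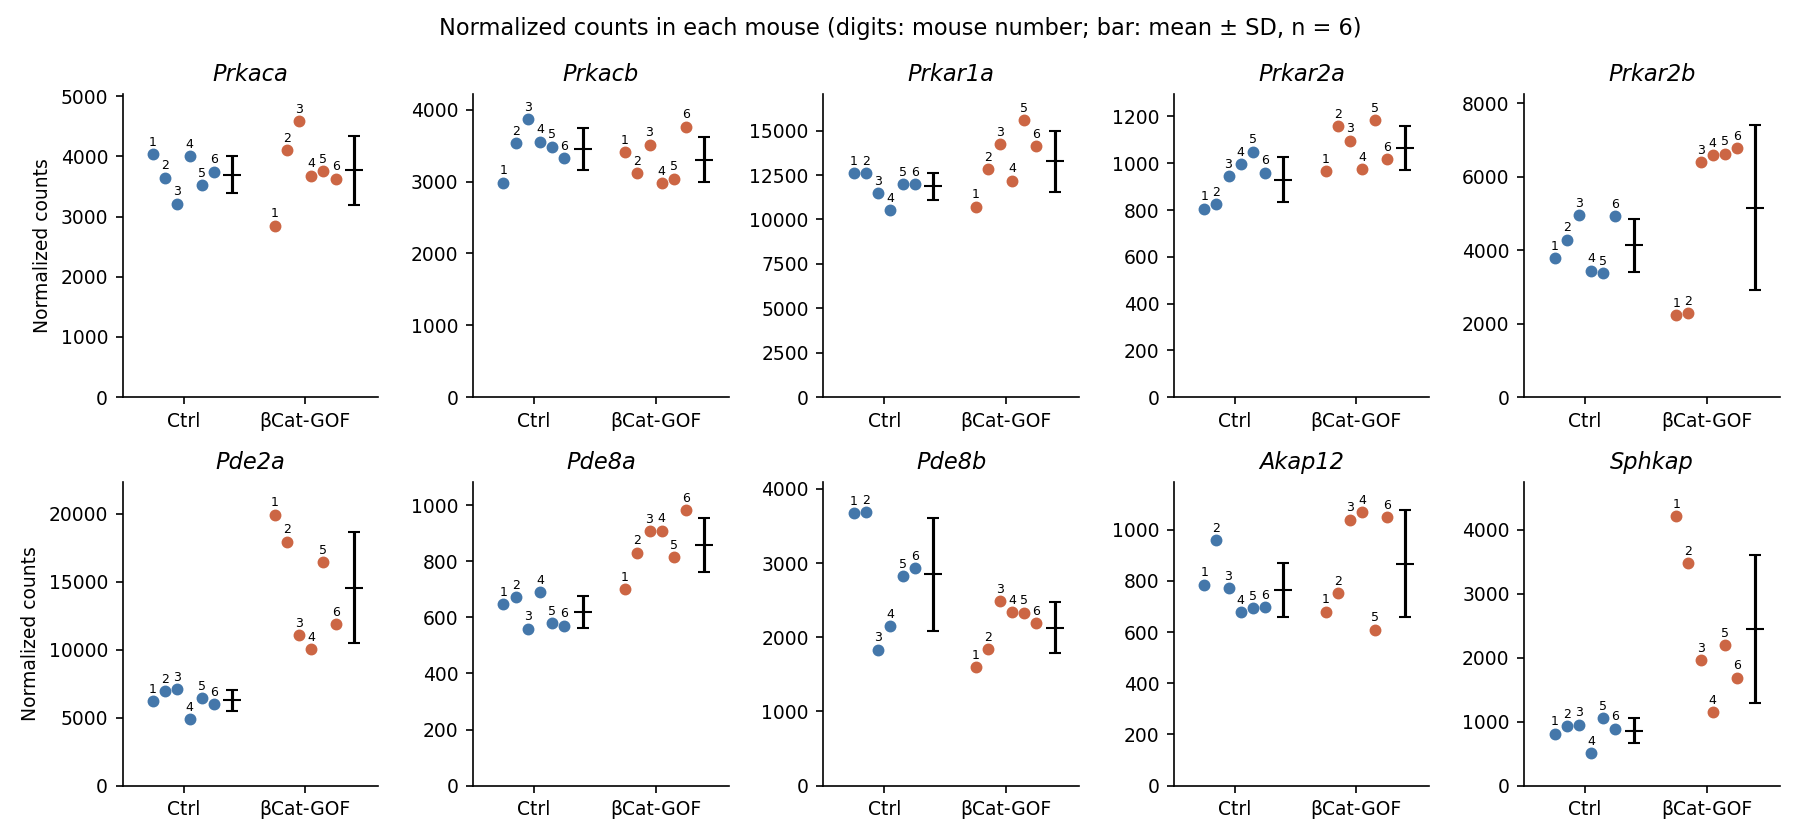
Normalized counts of the 10 genes in each mouse (vertical axes, linear and starting at 0), with Ctrl mice in blue, βCat-GOF mice in orange, mouse numbers above the points, and the mean ± SD of 6 mice as a bar. *Pde2a*, *Pde8a* and *Sphkap* show no overlap between the groups, and in *Prkar2b* the βCat-GOF mice 1 and 2 sit below all Ctrl mice while the other 4 sit above them.

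The sequences upstream of *Pde2a* and *Sphkap*, the pair with the largest differences, and of *Prkar1a*, the only gene of the set with a match to a motif searched, are shown first. Each run holds the 250 bases before an annotated RefSeq start on GRCm38.p6, read 5′ to 3′ on the gene's strand, at chr7:101421441-101421690 (plus strand, 1 of 5 *Pde2a* starts), chr1:83408201-83408450 (minus strand, the 1 *Sphkap* start) and chr11:109650699-109650948 (plus strand, 1 of 6 *Prkar1a* starts). Capitals mark a full cAMP response element (CRE), the site that factors of the CREB family bind.
Pde2a: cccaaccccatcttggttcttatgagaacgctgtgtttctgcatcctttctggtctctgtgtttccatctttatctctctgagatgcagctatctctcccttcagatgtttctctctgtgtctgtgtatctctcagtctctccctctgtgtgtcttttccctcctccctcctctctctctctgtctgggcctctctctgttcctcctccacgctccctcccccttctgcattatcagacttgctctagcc
Sphkap: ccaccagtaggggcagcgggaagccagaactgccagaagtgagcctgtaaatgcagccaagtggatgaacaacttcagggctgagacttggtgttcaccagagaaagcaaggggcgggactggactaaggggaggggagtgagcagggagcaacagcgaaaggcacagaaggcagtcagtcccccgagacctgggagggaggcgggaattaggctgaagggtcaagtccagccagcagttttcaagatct
Prkar1a: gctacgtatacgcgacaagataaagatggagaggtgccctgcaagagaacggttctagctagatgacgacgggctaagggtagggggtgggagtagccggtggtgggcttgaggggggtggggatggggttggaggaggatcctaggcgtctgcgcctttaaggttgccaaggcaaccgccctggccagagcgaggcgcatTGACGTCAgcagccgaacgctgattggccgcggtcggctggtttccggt

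Windows of this length were at hand for 9 of the 10 genes, 26 windows in all, and *Akap12* had none. They were searched on both strands for the CRE TGACGTCA, the TCF/LEF letters CTTTGAT (TCF/LEF factors carry β-catenin to DNA) and the short site AAGGTCA of SF-1, a nuclear receptor that directs steroidogenic genes. The search found a single match, the CRE that starts 49 bases upstream of the *Prkar1a* start shown above. Among all 32851 windows of this length, 1.55% hold the CRE, 3.21% the TCF/LEF letters and 4.08% the SF-1 short site. *Pde2a* and *Sphkap* thus hold none of the 3 motifs in the windows searched, which says only that these letters are absent there.

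The catalytic subunits did not separate the groups. *Prkaca* (ENSMUSG00000005469, chr8:83972993-83996443, GRCm38), the main catalytic subunit of most tissues, had between 3215 and 4033 normalized counts in Ctrl mice (median 3697) and between 2848 and 4585 in βCat-GOF mice (median 3715). The extremes were both βCat-GOF mice, with βCat-GOF 1 lowest and βCat-GOF 3 highest, and the groups overlapped. The log2 fold change of *Prkaca* was 0.02 ± 0.10 (standard error). *Prkacb* (ENSMUSG00000005034, chr3:146729574-146812990), the second catalytic subunit, ranged from 2984 to 3869 (median 3509) in Ctrl and from 2978 to 3767 (median 3265) in βCat-GOF adrenals. Both ranges were nearly the same, and the log2 fold change was -0.07 ± 0.08. Counted per kb of exon, *Prkaca* made up 78.9% ± 2.68 of the catalytic transcripts in Ctrl and 79.8% ± 3.14 in βCat-GOF mice (SD, n = 6), so the makeup of the catalytic pool differed by less than the spread between mice.

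Among the regulatory subunits, *Prkar1a* (ENSMUSG00000020612, chr11:109649405-109669656), which encodes RIα, had the highest mean per kb of the set in both groups. In βCat-GOF mice this holds only with *Pde2a* divided by the exons of both identifiers of its symbol. With that length, the range per kb of *Prkar1a* there overlapped that of *Pde2a* (2481 to 3604 against 1586 to 3145). *Prkar1a* had between 10523 and 12594 normalized counts in Ctrl (median 11985) and between 10721 and 15573 in βCat-GOF mice (median 13484). In 4 of 6 βCat-GOF mice it lay above every control, while βCat-GOF 1 and 4 stayed within the control range, and the log2 fold change was 0.15 ± 0.10. *Prkar2a* (ENSMUSG00000032601, chr9:108689314-108750436), encoding RIIα, ranged from 806 to 1049 (median 953) and from 965 to 1183 (median 1057). Its groups overlapped too, with 3 βCat-GOF mice above the highest Ctrl mouse and a log2 fold change of 0.19 ± 0.09.

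*Prkar2b* (ENSMUSG00000002997, chr12:31958476-32061296), encoding RIIβ, behaved differently among the βCat-GOF mice. Its normalized counts lay between 3370 and 4960 in Ctrl (median 4041) and between 2237 and 6788 in βCat-GOF mice (median 6493). βCat-GOF 1 and 2, with 2237 and 2284, were below all controls, and the other 4, from 6394 to 6788, were above all controls. With a coefficient of variation of 17.2% in Ctrl and 43.6% in βCat-GOF mice, the log2 fold change of 0.30 ± 0.27 describes neither subset. Without βCat-GOF 1 and 2 it was 0.66 and *Prkar2b* was called as well, which makes 4 of the 10 genes. The 2 low mice are those whose labels share a stem, and they had the lowest summed zF markers of the 12 mice (991256 and 1270037 normalized counts, against 1342731 to 1657399 in Ctrl and 1584799 to 2138411 in the other βCat-GOF mice). The part of these values in the *Prkar2b* split was not tested.

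Per kb, *Prkar2b* gave 25.4% ± 3.03 of the regulatory transcripts in Ctrl and 26.3% ± 8.25 in βCat-GOF mice (SD, n = 6). This close mean hides values of 16.8% in βCat-GOF 1 and 14.9% in βCat-GOF 2 beside 29.7% to 33.4% in the other 4 and 21.7% to 29.1% in Ctrl. *Prkar1a* supplied 62.1% ± 3.44 and 60.8% ± 7.06, and *Prkar2a* 3.32% ± 0.495 and 3.35% ± 0.687. *Prkar1b*, which encodes RIβ and is not one of the 10 genes, supplied the remainder. The ratio of regulatory to catalytic transcripts was 2.37 ± 0.253 in Ctrl (1.95 to 2.69) and 2.72 ± 0.459 in βCat-GOF mice (2.10 to 3.30), with overlapping groups. It was a ratio of transcripts, and protein was not measured.

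**Figure D2:**
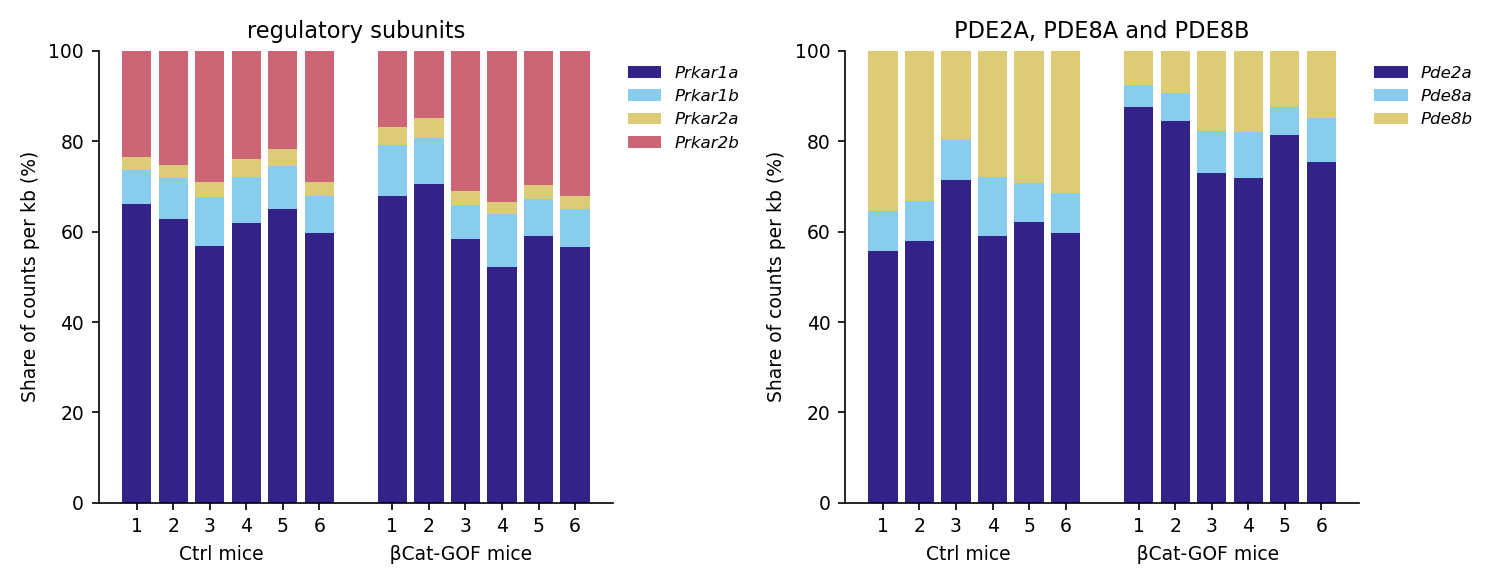
Share of the counts per kb of exon (vertical axis, percent) taken by each regulatory subunit gene (left) and by each of 3 phosphodiesterase genes (right), 1 bar per mouse. *Prkar2b* is smallest in βCat-GOF 1 and 2, at 16.8% and 14.9%, and *Pde2a* takes 71.8% to 87.6% of the right-hand set in βCat-GOF mice against 55.6% to 71.4% in Ctrl mice.

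The 3 phosphodiesterases did not move as one. *Pde2a* (ENSMUSG00000030653, chr7:101410886-101512819) encodes a cGMP-stimulated enzyme that breaks down cAMP and cGMP. It had between 4909 and 7116 normalized counts in Ctrl (median 6331) and between 10043 and 19916 in βCat-GOF mice (median 14156). The lowest βCat-GOF mouse thus lay well above the highest control, and βCat-GOF 1 and 2 were the highest of all with 19916 and 17939. The log2 fold change of *Pde2a* was 1.21 ± 0.18, and 0.97 without βCat-GOF 1 and 2. *Pde8a* (ENSMUSG00000025584, chr7:81213596-81334533), one of a pair of genes for cAMP-specific enzymes of high affinity, ranged from 559 to 689 (median 612) in Ctrl and from 701 to 981 (median 869) in βCat-GOF adrenals. Here the gap between the groups was narrow, with βCat-GOF 1 at 701 beside Ctrl 4 at 689, and the log2 fold change was 0.46 ± 0.09, below the 1.4-fold cut-off the study used.

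*Pde8b* (ENSMUSG00000021684, chr13:95024454-95250336), the other gene of that pair, pointed the other way. Its normalized counts spanned 1833 to 3685 in Ctrl (median 2877) and 1595 to 2484 in βCat-GOF mice (median 2260). The groups overlapped, since Ctrl 3 and 4 (1833 and 2148) were as low as the βCat-GOF mice, and only βCat-GOF 1 lay below all controls. The log2 fold change was -0.43 ± 0.17, and -0.30 without βCat-GOF 1 and 2. Taking the 3 genes together per kb, *Pde2a* made up 61.0% ± 5.54 of their transcripts in Ctrl and 78.9% ± 6.51 in βCat-GOF mice (SD, n = 6), with Ctrl 3 at 71.4% and βCat-GOF 4 at 71.8% almost meeting. *Pde8b* gave 29.5% ± 5.46 and 13.3% ± 4.32, and *Pde8a* 9.54% ± 1.70 and 7.76% ± 2.27. The share of *Pde8a* was thus no larger in βCat-GOF mice although its counts were higher, since the difference in *Pde2a* was larger.

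Both anchors bind regulatory subunits of PKA. *Sphkap* (ENSMUSG00000026163, chr1:83254139-83408200), whose protein was found as a partner of sphingosine kinase and binds RI subunits, had between 504 and 1059 normalized counts in Ctrl (median 910) and between 1147 and 4208 in βCat-GOF mice (median 2081). Its 6 βCat-GOF mice were all above the controls, from βCat-GOF 4 at 1147, just over Ctrl 5 at 1059, to βCat-GOF 2 at 3473 and βCat-GOF 1 at 4208. The log2 fold change of *Sphkap* was 1.51 ± 0.28, and 1.02 without βCat-GOF 1 and 2. *Akap12* (ENSMUSG00000038587, chr10:4266380-4359470), which encodes the scaffold gravin, ranged from 677 to 958 (median 734) and from 609 to 1068 (median 895). In this gene βCat-GOF 3, 4 and 6 exceeded all controls, βCat-GOF 5 lay below them, and the log2 fold change was 0.17 ± 0.15.

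**Figure D3:**
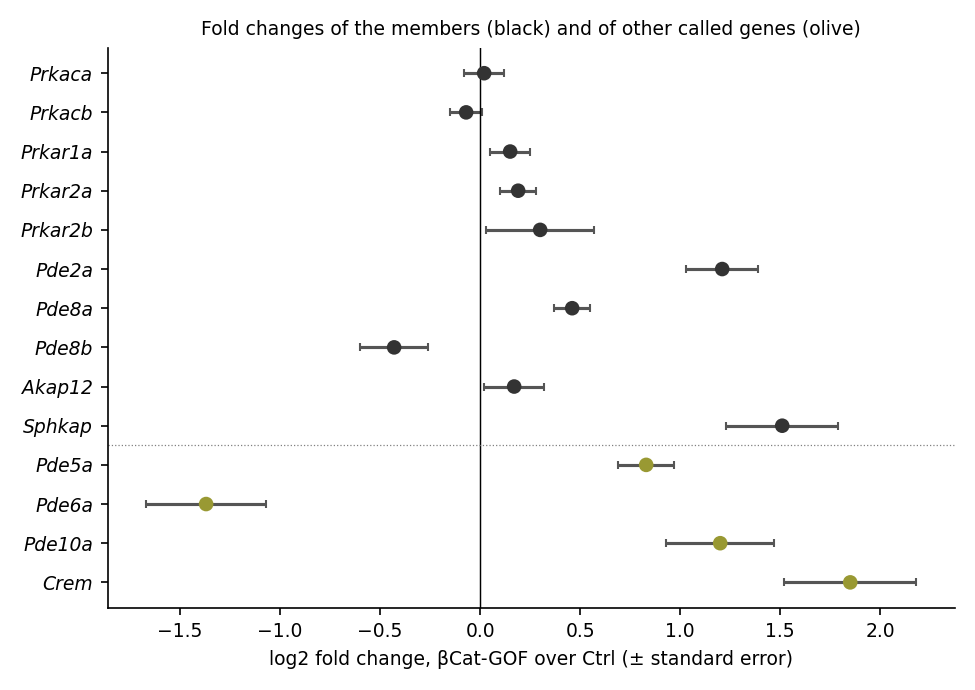
Log2 fold change of βCat-GOF over Ctrl (horizontal axis, ± standard error, 6 mice per group) for the 10 genes (black) and the 4 other cAMP and cGMP genes called (olive). *Sphkap* at 1.51 and *Pde2a* at 1.21 are the largest of the 10, and *Pde8b* at -0.43 is the lowest.

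The order of transcript levels, in normalized counts per kb of exon, changed mainly through *Pde2a* and *Sphkap*. In Ctrl adrenals it ran from *Prkar1a* (2744 ± 181, SD, n = 6) through *Prkaca* (1485 ± 124), *Prkar2b* (1132 ± 194), *Pde2a* (990 ± 125), *Pde8b* (485 ± 130), *Prkacb* (394 ± 33.3), *Pde8a* (153 ± 14.1), *Prkar2a* (146 ± 15.0) and *Akap12* (118 ± 16.3) to *Sphkap* (89.4 ± 19.9). Between neighbours, the ranges over mice were separate only for *Prkar1a* above *Prkaca*, *Pde2a* above *Pde8b* and *Prkacb* above *Pde8a*, and the other neighbours overlapped. In βCat-GOF adrenals *Pde2a* stood second (2296 ± 645) behind *Prkar1a* (3073 ± 399), and *Sphkap* stood seventh (255 ± 121). There only *Prkar2b* (1412 ± 615) and *Prkacb* (377 ± 35.4) were neighbours without overlap. Dividing by the longest transcript in place of all exons exchanged the Ctrl places of *Prkar2b* with *Pde2a*, *Pde8b* with *Prkacb*, and *Pde8a* with *Prkar2a*. *Pde2a* was divided by the exons of both identifiers of its symbol (6333 bases, against 4139 for the counted one). In βCat-GOF adrenals the mean of *Pde2a*, 14542 normalized counts, lay above the 13280 of *Prkar1a*. The shorter length of *Pde2a* is also below the 4321 bases of *Prkar1a*, so with it *Pde2a* would stand first there.

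Whether the genes vary together from mouse to mouse is a question the group difference does not answer, so the mean of each group was removed and the 45 pairs of the 10 genes were correlated over the 12 mice. For *Pde2a* and *Sphkap*, Pearson's r was 0.92 (permutation test within groups, two-sided, p = 0.00013, adjusted over 45 pairs p = 0.0058) and Spearman's rho 0.87 (permutation p = 0.00087, adjusted p = 0.039). It was the only pair past an adjusted p of 0.05. The sign was the same in both groups, with r of 0.89 in Ctrl and 0.93 in βCat-GOF mice. Over both groups r was 0.84 without the 2 mice farthest from the median of *Pde2a*. Without βCat-GOF 1 and 2 it was 0.81 (permutation p = 0.0077, adjusted p = 0.17), so the sign held and the pair no longer passed the adjustment. Without the 3 mice that repeat a label stem r was 0.88 (adjusted permutation p = 0.066), and without Ctrl 4, which was lowest in both genes among the controls, 0.91 (adjusted permutation p = 0.072). Ctrl 4 deviated by -0.34 log2 units in *Pde2a* and -0.72 in *Sphkap*. The other Ctrl mice lay between -0.06 and 0.19 and between -0.05 and 0.35. The r within Ctrl leans on Ctrl 4 and was not computed without it.

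**Figure D4:**
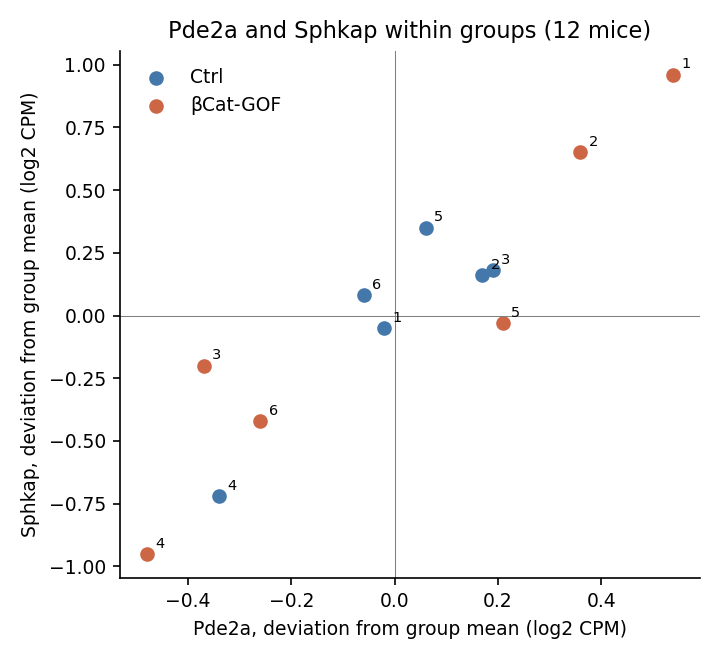
Deviation of *Sphkap* (vertical axis) against that of *Pde2a* (horizontal axis) from the group mean in log2 CPM, 1 point per mouse with its number, Ctrl in blue and βCat-GOF in orange. The 12 mice follow r = 0.92, with βCat-GOF 1 and 2 at the upper right and Ctrl 4 and βCat-GOF 4 at the lower left.

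No other pair passed the adjustment. *Pde8a* ran against *Sphkap* (r = -0.75, rho = -0.74, adjusted permutation p = 0.10 for r and 0.18 for rho) and against *Pde2a* (r = -0.72, rho = -0.63, adjusted permutation p = 0.13 and 0.27), and *Prkar1a* ran with *Pde8b* (r = 0.66, rho = 0.68, adjusted permutation p = 0.10 and 0.27). Without βCat-GOF 1 and 2, r in these pairs was -0.62, -0.56 and 0.55. For *Prkar2b* and *Sphkap*, r of -0.70 (rho = -0.68, adjusted permutation p = 0.34 and 0.32) rested on βCat-GOF 1 and 2, and without them it was 0.26.

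The genes whose deviations were most like those of each of the 10, among 11430 genes with a mean of at least 100 normalized counts, are given as a description. For *Pde2a* they were *Ccnd2* (r = 0.967), a D-type cyclin, *Prickle2* (0.965), of the planar cell polarity family, and *Neurl1b* (0.964). *Sphkap* was closest to *Raver2* (0.952), *Ppfibp2* (0.944) and *Il6st* (0.941), the last being the shared receptor subunit of the interleukin-6 family. *Prkar2b* went with *Tcp1* (0.970) and *Cct7* (0.954), both subunits of the chaperonin that folds actin and tubulin, and with *Fkbp1a* (0.947). *Prkar1a* had *Ahcyl2* (0.955), *Elovl5* (0.935) and *Pgam1* (0.907) nearest to it. For *Pde8b* the list read *Cox15* (0.965), *2610507B11Rik* (0.946) and *Gnpat* (0.946), and for *Prkaca* it read *Aldh1a1* (0.936), *Hdc* (0.913) and *Aacs* (0.908). *Akap12* was nearest to *Rbm34* (0.920), *Iqgap2* (0.915) and *Bcl6b* (0.912), *Pde8a* to *Fads1* (0.897), *Plaur* (0.893) and *H13* (0.893), *Prkacb* to *Phf20* (0.875), *Vamp4* (0.869) and *G3bp2* (0.857), and *Prkar2a* to *Elmod1* (0.820), *Pibf1* (0.800) and *Rcan2* (0.798). Such values are the highest of many, over 12 mice, and were not computed without βCat-GOF 1 and 2. For *Prkar2b* they include its log2 deviations of -1.01 in both of these mice.

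Some markers of the zG were higher along with *Pde2a* and *Sphkap*. Of 11 zG markers edgeR called 4, all higher in βCat-GOF (*Agtr1a*, *Agtr1b*, *Dab2* and *Vsnl1*), beside 2.16% of all genes tested in that direction. DESeq2 called 7, adding *Wnt4*, *Kcnk9* and *Shh* (edgeR log2 fold changes 0.79, 0.96 and 0.96). The summed list ran from 61799 to 75751 normalized counts in Ctrl and from 77153 to 101931 in βCat-GOF mice. In this sum *Kcnk3* has the most counts, and its log2 fold change was 0.01. βCat-GOF 1 and 2, highest for *Pde2a* and *Sphkap*, also had the highest sums, 100717 and 101931. *Cyp11b2*, the aldosterone synthase gene of differentiated zG cells, overlapped between the groups (2987 to 8035 in Ctrl, 2056 to 9254 in βCat-GOF). In the zF list 2 of 8 markers were called, both higher (*Mrap* and *Akr1b7*), beside 2.16% of all genes tested in that direction. The others were not called, with log2 fold changes from -0.18 (*Cyp11b1*) to 0.49 (*Star*). The zF sums were 1342731 to 1657399 in Ctrl and 991256 to 2138411 in βCat-GOF, and *Hsd3b1*, *Star* and *Cyp21a1* give most of these counts. Of 6 macrophage markers edgeR called 2, both lower (*Adgre1* and *Mrc1*), beside 1.52% of all genes tested in that direction. DESeq2 called 3, adding *Cd68* (edgeR log2 fold change -0.72). The macrophage sums were 3255 to 5034 in Ctrl and 2833 to 4545 in βCat-GOF. Chromaffin markers of the medulla summed to 79854 to 243320 in Ctrl and 100802 to 193136 in βCat-GOF, and no marker of any list was at 0 in all mice. Their part in the differences of the 10 genes was not tested.

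Outside the 10 genes, 80 further genes stood for the rest of the cAMP pathway and for all other phosphodiesterases, those specific for cGMP included. Of these, 66 were tested and edgeR called 4 (6.06%, beside 3.68% of all genes tested), 3 higher and 1 lower. The lists were chosen with earlier results of these data known, so this share is a description. Upstream of cAMP, no listed adenylyl cyclase or G protein α subunit was called with all 12 mice. *Mrap*, which acts with the corticotropin receptor, was called among the zF markers. Of 9 adenylyl cyclases, which make cAMP, edgeR and DESeq2 each called 0, with 2 at an unadjusted p under 0.05 in edgeR, and the most abundant per kb were *Adcy9* (log2 fold change -0.28, edgeR adjusted p = 0.18), *Adcy3* (0.04, adjusted p = 0.85) and *Adcy6* (-0.05, adjusted p = 0.88). Less abundant and further from the controls was *Adcy1* (-0.89, edgeR adjusted p = 0.15), which was called in 3 alternatives, among them without βCat-GOF 1 and 2. Of 7 G protein α subunits both tools called 0, with 3 at an unadjusted p under 0.05 in edgeR. Here the most abundant were *Gnas* (0.04, edgeR adjusted p = 0.90), which couples receptors to cyclase, and the inhibitory *Gnai3* (0.33, adjusted p = 0.15) and *Gnai2* (0.12, adjusted p = 0.51). Of the rarer ones, *Gnao1* (-0.66, edgeR adjusted p = 0.18) was called in 2 alternatives and *Gnai1* (-0.54, adjusted p = 0.13) and *Gnal* (-0.43, adjusted p = 0.35) in 1 each, as was *Gnai3*.

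The remaining PKA genes and anchors were also below the threshold in edgeR with all 12 mice. Of 5 other PKA subunits and inhibitors edgeR called 0, with 3 at an unadjusted p under 0.05. DESeq2 called 1, *Pkig*, which was called in 4 alternatives, DESeq2 included. This gene, for an inhibitor of free catalytic subunits, lay at 703 to 847 normalized counts in Ctrl and at 305 to 631 in βCat-GOF mice, without overlap (log2 fold change -0.53, edgeR adjusted p = 0.071), as did 1.16% of all genes tested in that direction. *Prkar1b* (0.24, edgeR adjusted p = 0.28) and *Prkx* (0.25, adjusted p = 0.24), which encodes a relative of the catalytic subunits, overlapped between the groups. Of 18 other A-kinase anchors both tools called 0, and 0 had an unadjusted p under 0.05 in edgeR. The most abundant of them were the mitochondrial anchor *Akap1* (0.11, edgeR adjusted p = 0.59), *Akap8l* (0.28, adjusted p = 0.51) and *Acbd3* (0.10, adjusted p = 0.57). *Akap6* (-0.66, edgeR adjusted p = 0.28) was called in 2 alternatives and *Map2* (-0.45, adjusted p = 0.32) in 1.

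Among 15 other phosphodiesterases tested, *Pde5a* and *Pde10a* rose and *Pde6a* fell in edgeR. These 3 calls stand beside 3.68% of all genes tested, and 6 of the 15 had an unadjusted p under 0.05. DESeq2 tested 17 and called 6, adding *Pde1b*, *Pde4c* and *Pde7b*. Their edgeR log2 fold changes were -0.69, 1.09 and -0.44 (edgeR adjusted p = 0.059, 0.078 and 0.12). *Pde1b* was called in 4 alternatives and *Pde4c* in 2, DESeq2 included, and *Pde7b* in DESeq2 only. *Pde3a* (-0.56, edgeR adjusted p = 0.28) was called in 1. *Pde5a*, a cGMP-specific enzyme, had between 946 and 1461 normalized counts in Ctrl and between 1569 and 2552 in βCat-GOF mice (log2 fold change 0.83 ± 0.14, edgeR adjusted p = 0.0058), and the groups did not overlap. *Pde10a*, which breaks down cAMP and cGMP, ranged from 318 to 543 and from 475 to 1712 (1.20 ± 0.27, edgeR adjusted p = 0.027). The difference lay in βCat-GOF 3 to 6, since βCat-GOF 1 and 2 (475 and 485) were within the control range, while the same mice were the highest for *Pde2a* and *Sphkap*. Without both, the log2 fold change of *Pde10a* was 1.53 (edgeR adjusted p = 0.0009). Leaving out Ctrl 2, Ctrl 6, βCat-GOF 3 or βCat-GOF 6 ended the call of *Pde10a* (log2 fold changes 1.20, 1.17, 1.14 and 0.97, edgeR adjusted p between 0.052 and 0.065). *Pde6a*, known from rod photoreceptors, had few reads, 17.1 to 39.9 normalized counts in Ctrl and 5.85 to 14.3 in βCat-GOF mice (-1.37 ± 0.30, edgeR adjusted p = 0.025). It was not called without Ctrl 4 or βCat-GOF 2, 5 or 6 (log2 fold changes -1.18, -1.25, -1.29 and -1.33, edgeR adjusted p of 0.056 to 0.057).

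Downstream, 1 of 12 effectors and CREB family genes was called (8.33%, beside 3.68% of all genes tested). *Crem*, whose products act at CREs as activators or, for the cAMP-inducible form ICER, as repressors, had between 708 and 999 normalized counts in Ctrl and between 585 and 4109 in βCat-GOF mice (log2 fold change 1.85 ± 0.33, edgeR adjusted p = 0.007). βCat-GOF 1, at 585, was below all controls, while the other 5, from 2258 to 4109, were above them, and without βCat-GOF 1 the log2 fold change was 2.08 (edgeR adjusted p = 9e-06), and without βCat-GOF 1 and 2 it was 2.02 (edgeR adjusted p = 5.1e-05). In βCat-GOF 1 the zF genes *Mrap* (2377 against 2732 to 4530 in Ctrl), the accessory protein of the corticotropin receptor, and *Akr1b7* (26231 against 32372 to 52148) were also below all controls, and whether these values share a source was not tested. *Crem* transcripts were counted per gene, so activator and repressor forms are not separated.

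**Figure D5:**
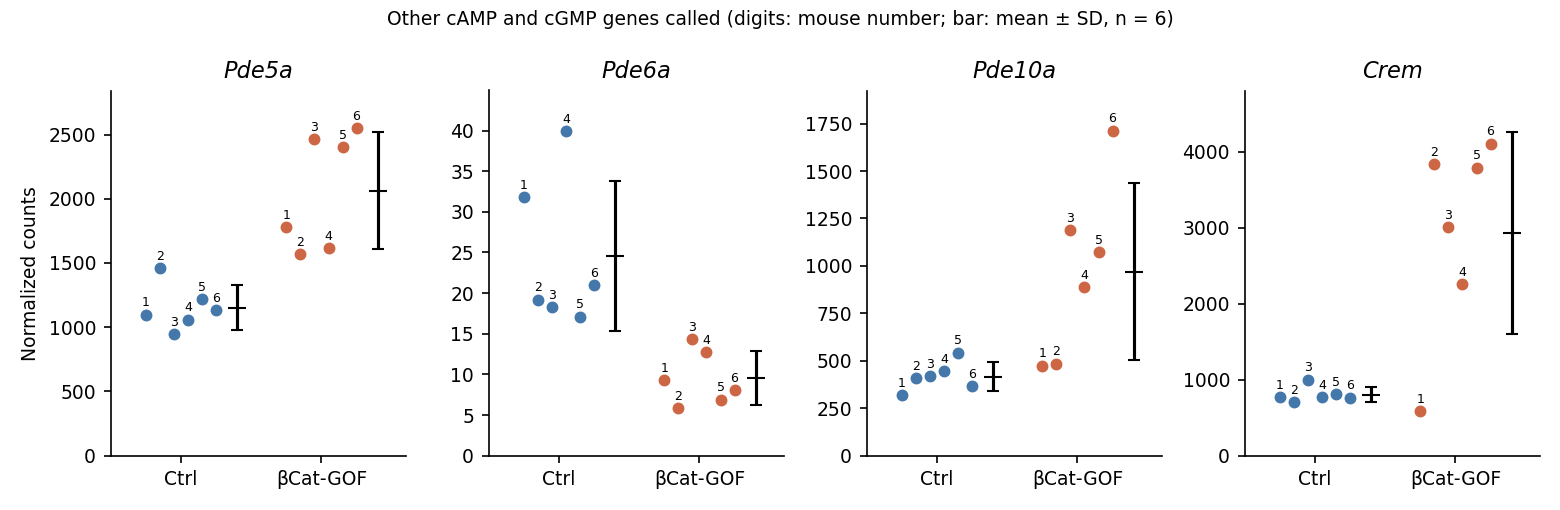
Normalized counts (vertical axes, linear and starting at 0) of the 4 other cAMP and cGMP genes called, by mouse, with the mean ± SD of 6 mice as a bar. βCat-GOF 1 and 2 lie at 475 and 485 for *Pde10a*, inside the Ctrl range, and βCat-GOF 1 lies at 585 for *Crem*, below all Ctrl mice.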

How the data were processed

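RNA sequencing of whole adrenals, 1 library per mouse, was compared between 6 Ctrl and 6 βCat-GOF mice, grouped by the genotype and titles in the labels and numbered in accession order. The authors trimmed adapters with cutadapt, aligned reads to mm10 with STAR, assigned uniquely mapping reads to genes with featureCounts 1.4.4 and deposited these counts without normalization for 39017 genes. A second table the authors deposited holds a signal, namely each library's counts over its own scaling factor. They compared groups with DESeq2 1.6.3. The annotation release and the strand setting of the counting are not given in the sources used here, and reads of genes that overlap in opposite directions may be mixed.

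Every test used the counts: edgeR 4.0.16 in R 4.3.3 (TMM, filterByExpr, quasi-likelihood test, two-sided), with Benjamini-Hochberg adjustment over all genes tested and a call at an adjusted p under 0.05. The study's methods used DESeq2, run here (version 1.42.0) as an alternative. Normalized counts are counts divided by DESeq2 median-of-ratios factors, and log2 CPM used a prior count of 2. The 10 genes and the gene lists were chosen with earlier results of these data known. No p is given for the group difference of the 10 genes for that reason. Adjusted p-values of the other listed genes come from the fit over all genes, and the same limit applies to them. The p-values measure the spread between libraries, which may in part be technical. Pairs of genes were tested by shuffling mice within groups (100000 resamples). Named besides the 10 genes are the called genes of each pathway list, the 3 most abundant per kb of lists without calls, and the 3 genes most like each of the 10. Marker genes, *Pkig*, *Adcy1*, *Gnao1*, *Gnai1*, *Gnal*, *Pde1b*, *Pde3a*, *Pde4c*, *Pde7b*, *Akap6* and *Map2* were named after their values were seen, beside results they touch.

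Positions and exon lengths came from GENCODE M21 on GRCm38 (mm10), in which 37693 of the identifiers have a position, and upstream sequences from RefSeq on GRCm38.p6. No gene of the set has a near-identical copy among the deposited genes (95% identity over 10% of the longest transcript). The *Pde2a* symbol has a further identifier in GENCODE M21, and both were used for its length (6333 bases, against 4139 for the counted one). Its levels and shares per kb are lower for that reason. Of the *Pde2a* exons 3.6% overlap other deposited genes, and 0% in the other 9. On simulated counts with 200 changed genes edgeR recovered 196 with 6 false calls among 14854 genes, and DESeq2 192 with 30 among 13793. The changed genes had a mean above 100 and a log2 fold change of 1 in either direction. Every simulated gene had the same dispersion, unlike the real counts, so these rates may not hold for them. Alternatives were DESeq2, its size factors, no filter, at least 10 counts in every mouse, the study's cut-offs (adjusted p under 0.05, fold above 1.4, base mean above 100), leaving out each mouse, the 3 mice that repeat a label stem and the mouse with another leading number. The factors of the deposited signal, leaving out both βCat-GOF mice of the shared stem, and the longest transcript as length were added after seeing the data. No column was left unmapped (0 columns). Figures used Python 3.11.15 and matplotlib 3.10.9.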

Additional observations from a re-analysis of the deposited data

Results flagged for a closer look

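*Crem* in Ctrl 3, at 999 normalized counts, lay far from the other 5 Ctrl mice (708 to 808). The gap to the nearest of them was 0.656 of the range of the group, above Dixon's 95% critical value for 6 samples. It was 1 of 28 groups examined (10 genes and 4 called pathway genes in 2 genotypes), and chance alone flags about 1 in 20.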

How the results depend on the processing

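In 21 alternatives, *Pde2a*, *Pde8a* and *Sphkap* were the called genes of the set except that the study's cut-offs left 2 (without *Pde8a*) and leaving out both βCat-GOF mice of the shared stem gave 4 (with *Prkar2b*). All 200 fold changes of the 10 genes in these alternatives moved by less than 1 SD between mice. Leaving out 1 mouse can hardly shift a group mean by that much, so this does not show stability. Without both βCat-GOF mice of the shared stem, *Sphkap* went from 1.51 to 1.02 and *Prkar2b* from 0.30 to 0.66. Over all genes the 323 higher and 228 lower calls became 675 and 569 with DESeq2, 905 and 835 without both βCat-GOF mice of the shared stem, and 195 to 560 and 92 to 395 when 1 mouse was left out. Higher calls moved by over 1.5 times without Ctrl 6 (195) and βCat-GOF 1 (560). Lower calls did so without Ctrl 2 (150), Ctrl 4 (133), Ctrl 5 (136), Ctrl 6 (92), βCat-GOF 1 (395), βCat-GOF 2 (139), βCat-GOF 3 (140), βCat-GOF 5 (125, the mouse with another leading number) and βCat-GOF 6 (96). They were 346 without the mice that repeat a label stem and 130 under the study's cut-offs. The 4 pathway calls became 7 without the mice that repeat a label stem, 8 with DESeq2, 12 without both βCat-GOF mice of the shared stem and 3 to 6 when 1 mouse was left out. The cause was not tested. The correlated pairs numbered 1 in the report, 0 without the mice that repeat a label stem, without both βCat-GOF mice of the shared stem or without Ctrl 4, 3 without Ctrl 2 or βCat-GOF 4, and 0 to 3 over the single mice left out. *Pde6a* (-1.35, edgeR adjusted p = 0.067) was also not called without the mice that repeat a label stem, and its few reads kept it out of the test with at least 10 counts in every mouse and out of the study's cut-offs. The near-zero fold change of *Prkaca* ran from -0.05 to 0.09 over the single mice left out. No called gene changed direction. No paired analysis was possible because the labels give no number that mice of both groups share.

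At these depths genes with few reads, such as *Pde6a*, have a large counting error, and 14 of the 80 pathway genes had too few reads to be tested. Whole-gland RNA cannot place a difference in a cell type.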
